A study of Mus musculus with 380 samples.

Results

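Foxn1, a forkhead transcription factor, and 7 further regulators of thymus organogenesis (Pax1, Pax9, Six4, Eya1, Hoxa3, Tbx1 and Trp63) were followed through single-cell transcriptomes of mouse thymic epithelial cells (TECs). The 8 genes were taken by name from a list, with earlier results of these data known, and each had 1 entry among the 30324 genes in the tables. Transcripts were counted by CEL-Seq2, a plate-based method that reads the 3′ end of each mRNA with a molecular barcode, in 25154 kept cells, of which 23585 were CD45- EpCAM+ cells not sorted any further and 1569 came from gates for Ly51 or UEA-1. Cells of 1 animal share that animal, so animals were the replicates (n = 10 mice as grouped here). The wild-type animals were 1 at E16.5 of embryonic life, 1 newborn (P0), 4 at 4 weeks (P28, numbered 1 to 4) and 1 at 1 year. Animals carrying the Fgf7 transgene, an epithelial growth factor expressed under the Foxn1 promoter, were 2 at P28 (numbered 1 and 2) and 1 at 1 year. The labels give C57BL/6 for all animals except transgenic mouse 1 at P28, which was on an FVB/N background backcrossed to C57BL/6J. The wild-type mice at E16.5, P0 and 1 year, wild-type mice 3 and 4 and transgenic mouse 2 are labelled female, and the other animals male. Some libraries of transgenic animals carry WT in their description but the transgene in their genotype label, which was used here. Wild-type mouse 1 at P28 was not lineage-barcoded and, by the study's methods, gave its whole sample volume to the transcriptome. Transgenic mouse 1 is not among the barcoded samples of those methods and was treated in the fits as whole volume too, which the sources do not state. By the study's methods the barcoded animals carried hU6-sgRNA-Hprt, Foxn1-cre and a Cas9 gene at Rosa26 behind a floxed stop, and a part of each well's volume went to the barcode assay. Whether transcripts of the Foxn1-cre or Foxn1-driven Fgf7 constructs hold Foxn1 sequence is not given in the sources used here. Levels are given as CPM, the transcripts of a gene scaled to a total of 1000000 transcripts summed over the cells of a mouse.

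The thymus forms from endoderm of the third pharyngeal pouch. Hoxa3 (a homeobox factor), Pax1 and Pax9 (paired-box factors), Eya1 (a phosphatase that acts as a coactivator) and Six4 (one of its homeodomain partners) act early in this region, and Tbx1 is a T-box factor of the pharyngeal endoderm. Foxn1, which is defective in the nude mouse, is required for the pouch epithelium to differentiate into TECs and to support T cell development. Trp63 encodes p63, a factor needed for the renewal of stratified epithelia and of the thymic epithelium. The 3 genes against which the members were read within cells mark TEC states: Psmb11 encodes the thymoproteasome subunit of cortical TECs and is a direct target of Foxn1, Krt5 encodes a basal keratin of the medulla and of other basal epithelia, and Aire drives expression of tissue-restricted antigens in medullary TECs.

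Foxn1 recognizes DNA with the core GACGC, and the start regions of Foxn1 and of its target Psmb11 are shown because the levels of both genes were compared within cells. They run from 250 bases before to 50 bases after the transcription start in RefSeq (GRCm38.p6), are written 5′ to 3′ along the strand of the gene, and have any core, on either strand, in capitals. The Foxn1 region lies on the minus strand at chr11:78386559-78386858 and the Psmb11 region on the plus strand at chr14:54625060-54625359.
Foxn1: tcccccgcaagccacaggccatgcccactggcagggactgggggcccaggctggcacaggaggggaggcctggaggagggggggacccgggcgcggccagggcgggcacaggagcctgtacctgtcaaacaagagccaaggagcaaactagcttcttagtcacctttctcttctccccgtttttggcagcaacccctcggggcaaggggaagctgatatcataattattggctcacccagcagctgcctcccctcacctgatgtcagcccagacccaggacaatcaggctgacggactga
Psmb11: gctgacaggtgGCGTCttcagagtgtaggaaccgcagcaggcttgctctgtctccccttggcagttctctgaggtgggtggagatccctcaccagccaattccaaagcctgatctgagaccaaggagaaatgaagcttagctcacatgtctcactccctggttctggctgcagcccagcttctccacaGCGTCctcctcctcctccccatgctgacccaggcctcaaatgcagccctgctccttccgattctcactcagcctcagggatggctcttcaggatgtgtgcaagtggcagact
The Psmb11 region held the core 2 times, both as GCGTC on the strand shown, and the Foxn1 region held none. Of 32851 RefSeq start regions of this length, 27.2% held the core at least once on either strand and 8.15% held it 2 or more times, so that these letters alone do not mark a gene out. Start regions matched 6 of the 8 members, and those of Eya1 and Trp63 were not used here.

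Before the members were compared, the cells were checked against marker genes. All 6 epithelial genes checked (Epcam, Cdh1, Krt8, Krt18, Cldn3 and Cldn4) were found in the unsorted cells of every mouse, at a summed 2917 to 8869 CPM, and the summed thymocyte genes lay between 31.6 and 906 CPM. The unsorted cells of the 1-year wild-type mouse stood apart, with 25923 CPM of parathyroid genes (Gcm2, Pth, Chga and Casr) against 7.93 to 1980 CPM in the other 9 mice. Among the kept cells none had a profile identical to another cell's, and cells had a median of 3768 to 12358 transcripts in the unsorted cells of the 10 mice. In wild-type mouse 1 at P28, labelled male, 4 of the 20 unsorted libraries, marked in the labels as a biological replicate, held 382 CPM of the female-specific Xist, against 1.57 CPM in the other 16. By Xist those 4 libraries were not from the male animal of the other 16. They were kept under this mouse, since the labels name no other, so the count of 10 mice takes its libraries as 1 animal. Leaving those 4 libraries out changed no count of members called in any comparison. In 26 cells with 5 or more thymocyte transcripts and none of the 6 epithelial genes, thinned to 1000 transcripts, 0 held Foxn1 (an exact upper limit of 13.2%) and 2 (7.69%, 0.946 to 25.1%) held Pax1, values beside which shares of cells can be read. Unthinned, at a median depth of 3432 transcripts, 1 cell (3.85%) held Foxn1 and 4 (15.4%) held Pax1, and Pax1 was at 65.6 CPM (5 transcripts, 21.3 to 153.003 CPM), a level like that of all unsorted cells of wild-type mouse 1 at P28.

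In the 4 wild-type mice at P28 Pax1 (149 ± 67.9 CPM, mean ± SD, n = 4), Foxn1 (140 ± 18.002) and Trp63 (104.4 ± 14.4) were the most abundant members, followed by Pax9 (82.2 ± 11.8), Eya1 (47.2 ± 6.23) and Six4 (33.04 ± 9.01). Hoxa3 (4.44 ± 1.59) and Tbx1 (1.14 ± 0.434) were far lower. Because 3′ tags give 1 count per molecule, these levels need no division by gene length, but they still depend on how well each 3′ end is captured. Over the 4 mice the range of each gene overlapped that of its neighbour in this order, except between Pax9 and Eya1, between Six4 and Hoxa3 and between Hoxa3 and Tbx1.

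Foxn1 was read at 138.4, 115.2, 152.8 and 153.9 CPM in wild-type mice 1 to 4 at P28, at 255.004 CPM at E16.5, at 273 CPM at P0 and at 104.3 CPM at 1 year. The transgenic mice had 136.6 and 265.2 CPM at P28 and 76.3 CPM at 1 year. The perinatal animals and transgenic mouse 2 thus lay above all 4 wild-type mice at P28, and both 1-year animals lay below them. With every cell thinned to 1000 transcripts, 8.18 to 12.8% of cells in the 4 wild-type P28 mice held Foxn1, compared with 22.4% at E16.5 (95% exact binomial interval 20.8 to 24.1%), 23.1% at P0 (20.8 to 25.4%), 9.21% at 1 year (7.85 to 10.7%) and 6.15% in the 1-year transgenic mouse (5.31 to 7.08%). Transgenic mice 1 and 2 at P28 had 7.62% (6.09 to 9.39%) and 20.2% (18.8 to 21.7%). These intervals cover counting error only. Without thinning, the share at P28 was 35.5 ± 6.17% (n = 4 wild-type mice), since deeper cells show a low transcript more often.

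Pax1 had the widest range of the abundant members, from 66.8 CPM in wild-type mouse 1 at P28 to 987 CPM at E16.5. The other wild-type P28 mice had 121, 204.8 and 205.2 CPM, the newborn 846 CPM and the 1-year wild type 319.2 CPM, and the transgenic mice had 169.5 and 473.5 CPM at P28 and 183.7 CPM at 1 year. Both perinatal animals were more than 4 times above any wild-type mouse at P28. Pax9, its close relative, varied far less, with 78.4, 88.4, 94.4 and 67.5 CPM in wild-type mice 1 to 4 at P28, 195 at E16.5, 152.4 at P0, 153.5 at 1 year, 98.8 and 133 in the P28 transgenic mice and 188.5 in the 1-year transgenic mouse. No mouse of another age or genotype was below the highest wild-type P28 value of Pax9.

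Of the cofactor pair, Eya1 was read at 55.4, 41.9, 48.7 and 42.9 CPM in the wild-type P28 mice, 67.7 at E16.5, 71.4 at P0, 92.7 at 1 year, 36.2 and 97.8 in the P28 transgenic mice and 124 in the 1-year transgenic mouse. The 2 animals at 1 year and transgenic mouse 2 held the 3 highest Eya1 levels, and transgenic mouse 1 the lowest. Six4 moved least of all 8 genes, from 26.8 CPM in wild-type mouse 4 at P28 to 60.2 CPM at E16.5, a 2.25-fold range.

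Trp63 was read at 111, 85.2, 119 and 102.8 CPM in the wild-type P28 mice and at 218.5 CPM at E16.5, 256 at P0, 227 at 1 year, 117 and 220.7 in the P28 transgenic mice and 220 in the 1-year transgenic mouse. All animals other than the wild-type P28 mice and transgenic mouse 1 therefore had 218.5 CPM of Trp63 or more. Hoxa3 was read at 2.68 to 6.40 CPM in the wild-type P28 mice, at 16.7 CPM at E16.5 and at 15.02 CPM at P0. It was at 9.59 CPM in the 1-year wild type, 3.01 and 11.6 CPM in the P28 transgenic mice and 9.43 CPM in the 1-year transgenic mouse. Tbx1 was lowest in the perinatal animals, with 2 transcripts in all 2543 cells at E16.5 (0.0878 CPM) and 0.375 CPM at P0, against 0.755 to 1.66 CPM in the wild-type P28 mice, 5.81 CPM in the 1-year wild type and 5.95 CPM in the 1-year transgenic mouse. A Tbx1 transcript was seen in 1.96% of cells of the 1-year wild type (95% exact binomial interval 1.38 to 2.69%) and in 3.13% of cells of the 1-year transgenic mouse (2.54 to 3.82%), without thinning. These shares depend on depth, with medians of 3768 and 6798 transcripts per cell in the 2 mice. Thinned to 3000 transcripts the share was highest in the 1-year wild type (1.33%), and thinned to 1000 in the 1-year transgenic mouse (0.541%).

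**Figure D1:**
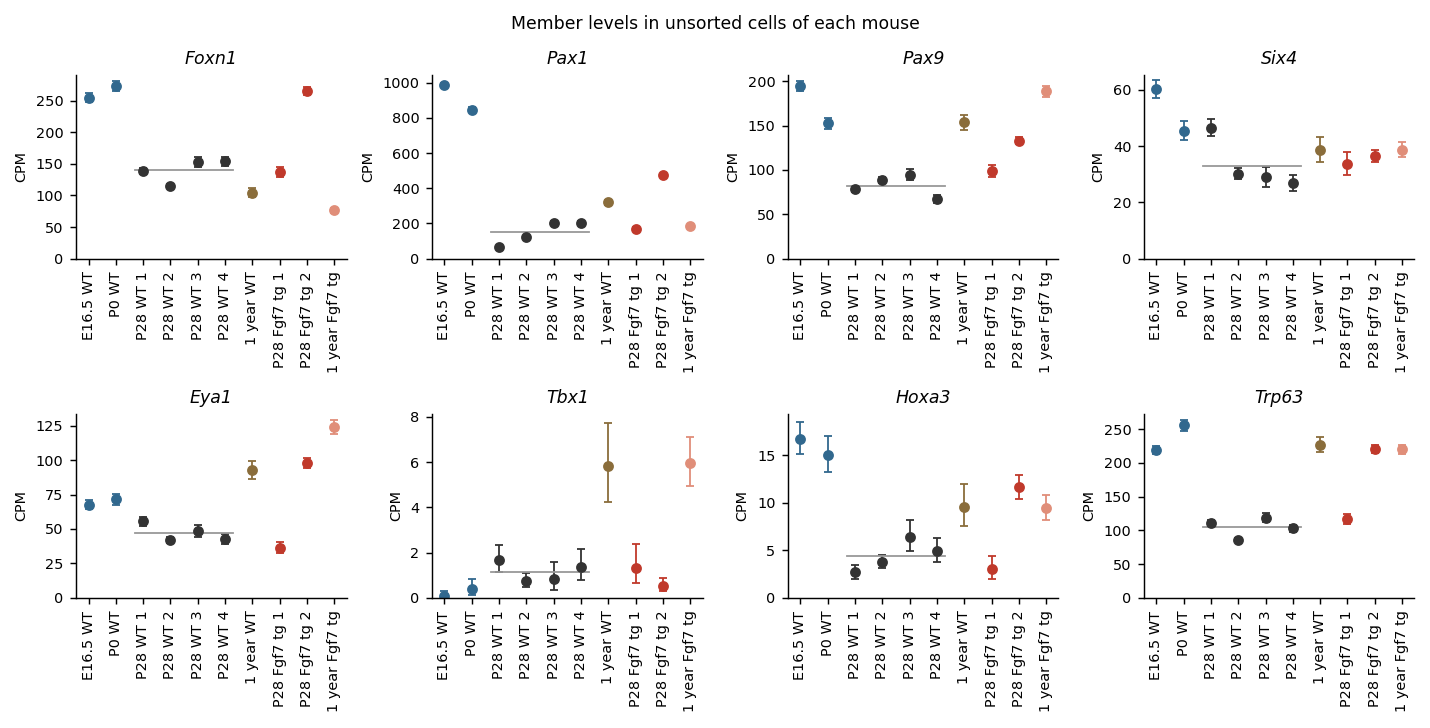
Level of each of the 8 genes (vertical axis, CPM from 0) in the unsorted cells of each of the 10 mice (horizontal axis), with 95% Poisson intervals for counting error and a grey line at the mean of the 4 wild-type mice at P28. Pax1 reaches 987 CPM at E16.5 and 846 CPM at P0, and Tbx1 is highest in both 1-year mice.

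The first comparison asked how the developing thymus differs from the young adult one. Against the 4 wild-type mice at P28, 6 members were higher and 1 lower at E16.5 by edgeR's quasi-likelihood test with Benjamini-Hochberg adjustment over all genes, in which 29.5% of the 22471 genes tested were called, 13.1% higher and 16.4% lower. Pax1 rose most, by 2.77 on the log2 scale (SE 0.28, adjusted p = 0.0022, 6.83-fold). Hoxa3 (1.94, SE 0.40, adjusted p = 0.014), Pax9 (1.48, SE 0.24, adjusted p = 0.0074), Trp63 (1.28, SE 0.29, adjusted p = 0.017), Six4 (1.28, SE 0.25, adjusted p = 0.011) and Foxn1 (1.06, SE 0.27, adjusted p = 0.025) were also higher. Tbx1 fell by 3.01 (SE 0.89, adjusted p = 0.039) with 2 transcripts in all at E16.5, a call lost in 5 of 19 alternative settings (without wild-type mouse 2, 3 or 4, without the volume term and with sex added, an edgeR adjusted p of up to 0.083). Eya1 was 0.72 higher without passing the test (SE 0.40, adjusted p = 0.19). The median difference was 1.28 over the 8 members and -0.34 over all genes tested. The age contrast rests on 1 animal, whose spread is assumed to be that of the other groups, and in such sums a larger share of cells that use a gene and more transcripts per cell cannot be told apart.

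At P0 5 of 8 members were called higher, against 14.9% of all 22471 genes called, 6.53% higher and 8.32% lower. Pax1 was 2.52 higher (SE 0.28, edgeR adjusted p = 0.0057), Hoxa3 1.75 (SE 0.41, adjusted p = 0.032), Trp63 1.48 (SE 0.28, adjusted p = 0.021), Foxn1 1.13 (SE 0.27, adjusted p = 0.035) and Pax9 1.10 (SE 0.25, adjusted p = 0.030). Six4 (0.85, adjusted p = 0.059), Eya1 (0.76, adjusted p = 0.20) and Tbx1 (-1.01, adjusted p = 0.34) did not pass. The comparisons at E16.5, P0 and 1 year all use the same 4 wild-type P28 mice as controls. Of these, mouse 1 alone was whole volume, while the E16.5, P0 and 1-year animals were fitted as split volume. Through the volume term these contrasts therefore rest mainly on wild-type mice 2 to 4. Without wild-type mouse 2, 3 or 4 only 1 or 2 members were called at P0, with sex added as a term 1 was, and without a term for the sample volume none was. The newborn is labelled female and wild-type mice 1 and 2 male. The Foxn1 calls at E16.5 and P0 were each lost in 5 of 19 alternative settings, at an edgeR adjusted p of up to 0.063 and 0.087, while the Pax1 call at E16.5 was lost in none.

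Of 9 genes listed as targets of Foxn1 in TECs (Psmb11, Prss16, Dll4, Ccl25, Cxcl12, Kitl, Cd83, Ctsl and Tbata), 6 were higher at E16.5 and all 9 at P0, and none was lower. Psmb11 was 2.18 higher at E16.5 on the log2 scale (edgeR adjusted p = 0.015), as was Kitl, the ligand of Kit on early T cell progenitors, by 1.92 (adjusted p = 0.0022). At P0 Prss16, a thymus-specific serine protease, was 2.61 higher (adjusted p = 0.0072) and Cxcl12, a chemokine that draws progenitors, 2.42 higher (adjusted p = 0.0070). Among 9 further factors of the pharyngeal region that were tested, 3 were higher and 3 lower at E16.5, the latter Pax8 (-5.21), Gata3 (-2.50) and Ripply3 (-2.10). Of 9 factors of mature TEC states, 4 were lower at E16.5 and 4 lower and 1 higher at P0, Fezf2 among the lower ones at both ages (-3.88 and -3.60). Of 10 basal genes 5 were lower at E16.5 and 3 at P0, and of 7 pouch signals tested Bmp4 was higher (2.16) and Shh (-7.32) and Dkk3 (-2.08) were lower at E16.5. Markers of other cell types moved as well. At E16.5 6 of 11 thymocyte, 4 of 4 thyroid, 3 of 3 myeloid and 1 of 4 endothelial genes were lower, and of 6 fibroblast genes 2 were higher and 1 was lower. At P0 2 of 3 myeloid genes and 1 of 4 thyroid genes were lower, and of 6 fibroblast genes 1 was higher and 2 were lower. Their part in the differences was not tested beyond leaving out thymocyte- or fibroblast-marked cells.

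The share of Psmb11-positive cells, defined throughout as cells with a Psmb11 transcript among 1000, moved with these differences. It was 53.2% at E16.5 and 54.97% at P0, but 5.36 to 13.1% in the wild-type P28 mice, 8.17% at 1 year, 5.14 and 34.98% in transgenic mice 1 and 2 and 3.48% in the 1-year transgenic mouse. The share grew with depth, in the newborn to 79.7% at 3000 transcripts and 92.6% without thinning. In the wild-type P28 mice it was then 12.4 to 24.2% and 16.7 to 32.4%. A cell without Psmb11 among 1000 may thus still hold it, so positive and negative name detection at this depth. Because the share moved, the tests were repeated on the summed transcripts of Psmb11-positive cells alone, where 7 members could be tested and Tbx1 was too low. At E16.5 3 of the 7 were then called, against 24.3% of 14355 genes (9.52% higher, 14.8% lower): Trp63 (1.15, SE 0.22, edgeR adjusted p = 0.0048), Pax9 (1.16, SE 0.29, adjusted p = 0.018) and Six4 (0.80, SE 0.23, adjusted p = 0.029). The Six4 call was lost in 5 of 21 alternative settings (adjusted p of up to 0.20), among them those without wild-type mouse 4, without marked cells and by DESeq2, and the Pax9 call in 2. Foxn1 differed by 0.20 (SE 0.26, adjusted p = 0.61), with 347.2 CPM in the Psmb11-positive cells at E16.5 against 350, 325, 295 and 283.8 CPM in those of wild-type mice 1 to 4 at P28. Pax1 was 1.13 higher in these cells (SE 0.40, adjusted p = 0.062) and was called in 8 of 21 alternative settings. At P0 1 of the 7 passed, Trp63 (1.14, SE 0.22, adjusted p = 0.012), against 9.56% of genes (3.1% higher, 6.46% lower), and Foxn1 differed by 0.06 (SE 0.26, adjusted p = 0.92). Of the 8 Foxn1 targets that could be tested in these cells, none was higher and 3 were lower at E16.5, namely Tbata (-1.76), Cd83 (-1.47) and Ccl25 (-1.29), while at P0 1 was higher, Ctsl (0.66, adjusted p = 0.031), and none was lower. All 11 thymocyte genes were lower in these cells at E16.5, as were 6 of 10 basal genes (Krt14 -3.66), 4 of 9 factors of mature TEC states (Fezf2 -3.86, Aire -3.53), 1 of 3 myeloid genes and the 1 endothelial and 1 thyroid gene tested. At P0 4 of the 9 factors, 3 of the basal genes, 1 of 5 fibroblast genes and the 1 thyroid gene tested were lower. Of 6 epithelial genes 2 were lower at each of these ages. The part they have in the result was not tested beyond leaving out marked cells. Whether the difference of a member in all cells exceeds that in Psmb11-positive cells was not tested. Foxn1 was itself higher in Psmb11-positive than in Psmb11-negative cells in 10 of 10 mice, so choosing cells by Psmb11 also chooses them by Foxn1. In Psmb11-negative cells Foxn1 ranged from 71.02 to 214 CPM over the mice, and ages were not tested there. With Psmb11 sought among all transcripts of a cell, 6 members were called at E16.5 and 4 at P0, and with at least 2 Psmb11 transcripts of 1000 required, 1 and 0 were.

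**Figure D2:**
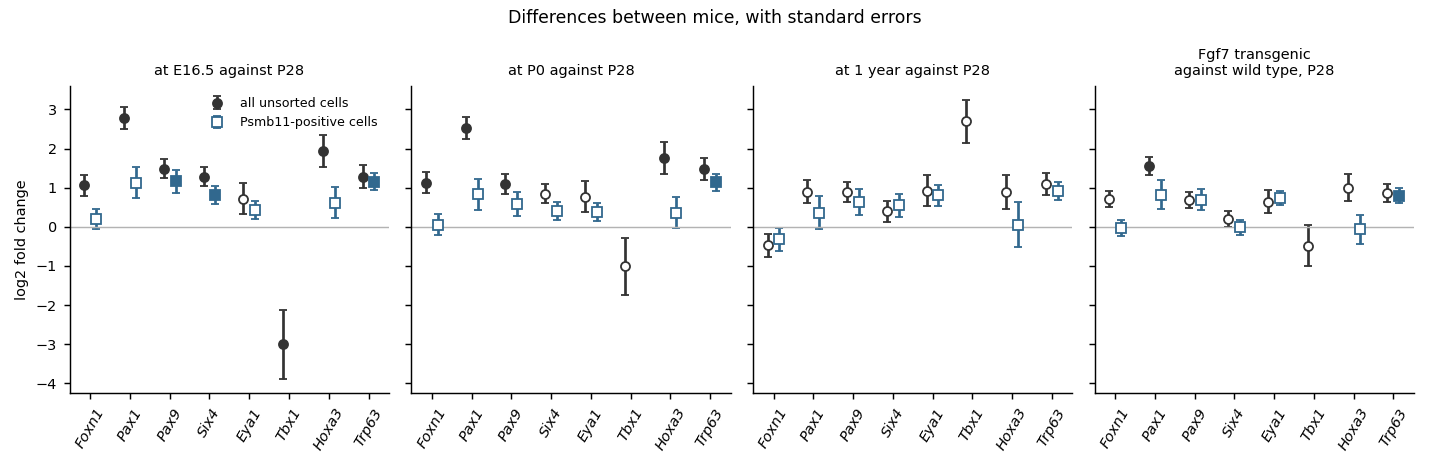
Log2 fold change of each member (vertical axis) with its standard error in 4 comparisons between mice, in all unsorted cells (circles) and in Psmb11-positive cells (squares). Filled symbols passed edgeR's test at an adjusted p under 0.05, and the Foxn1 squares lie near 0 at E16.5 and P0 where its circles lie near 1.

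At 1 year no member passed in wild-type cells, where 0.392% of all genes were called (0.378% higher, 0.0134% lower). By edgeR's unadjusted p, 5 of the 8 members were under 0.05, as were 3009 of all 22471 genes. DESeq2 called 2 members and 748 of the 16112 genes with an adjusted p. Tbx1 and Trp63 were each called in 5 of 19 alternative settings, and Eya1 in 4. Tbx1 had the largest difference (2.70, SE 0.55, edgeR adjusted p = 0.13), followed by Trp63 (1.09, SE 0.29, adjusted p = 0.21), Eya1 (0.92, adjusted p = 0.37), Pax1 (0.90, adjusted p = 0.28), Pax9 and Hoxa3 (both 0.89, adjusted p = 0.22 and 0.42), with Foxn1 at -0.48 (adjusted p = 0.52). In the cells with 5 or more transcripts of the 4 parathyroid genes, 82.4% of the unsorted cells of this mouse, Tbx1 was at 6.52 CPM (45 transcripts in 1557 cells), against 0.979 CPM (1 transcript, 95% Poisson interval 0.0248 to 5.45 CPM) in its other cells. In the 1-year transgenic mouse 13.6% of cells were so marked. Tbx1 was at 6.68 CPM in its marked cells and 5.81 CPM in the 2565 others, against 5.95 CPM in all. Whether the mark separates parathyroid cells in the transgenic mouse was not tested, nor was their part in its Tbx1 level. Foxn1 was at 104.7 and 101.8 CPM in marked and other cells of the 1-year wild type, and Pth (7.03, adjusted p = 0.017) and Chga (6.25, adjusted p = 0.0015) were also higher in its Psmb11-positive cells than at P28. The mark therefore does not separate parathyroid cells from TECs in this mouse. In Psmb11-positive cells no member passed at 1 year, against 0.571% of genes called (0.481% higher, 0.0906% lower), and 2 members had an unadjusted p under 0.05, while DESeq2 called 0. The Foxn1 target Dll4 (-2.25, adjusted p = 0.041) and Aire (-2.44, adjusted p = 0.049) were lower in these cells. Of 7 pouch signals tested 2 passed in all unsorted cells: Bmp4, which patterns the thymus primordium, was 2.79 higher at 1 year (adjusted p = 0.041) and Dkk3, a secreted Wnt pathway protein, 3.59 higher (adjusted p = 0.014).

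In the Fgf7 transgenic mice at P28 Fgf7 itself was at 47.4 and 100 CPM, against 0.395 to 1.73 CPM in the 4 wild-type mice, a difference of 6.03 on the log2 scale (SE 0.46, edgeR adjusted p = 0.0071), and at 1 year it was at 20.3 CPM against 6.31 CPM. Pax1 alone among the members passed the comparison of transgenic with wild-type mice at P28, where 0.583% of genes were called (0.521% higher, 0.0623% lower), with a difference of 1.55 (SE 0.24, adjusted p = 0.043, 2.93-fold). Trp63 (0.87, adjusted p = 0.17), Foxn1 (0.71, adjusted p = 0.22), Pax9 (0.69, adjusted p = 0.20) and Hoxa3 (1.00, adjusted p = 0.26) had unadjusted p under 0.05 only. Of all 22471 genes, 3133 had an unadjusted edgeR p under 0.05 in this comparison. The 2 transgenic mice were unlike: mouse 2 exceeded every wild-type P28 mouse in Foxn1, Pax1, Pax9, Eya1, Hoxa3 and Trp63, whereas mouse 1 lay within or below the wild-type range in Foxn1, Pax1, Six4, Eya1, Tbx1, Hoxa3 and Trp63. The Pax1 call was lost without transgenic mouse 2, without wild-type mouse 2, 3 or 4, without the term for sample volume and with sex as a further term, with an edgeR adjusted p of up to 0.86. Without transgenic mouse 1, 5 members were called, and without wild-type mouse 1, 4 were. These 2 mice are the ones fitted as whole volume. With 1 of them left out the volume term fits the other alone, so both settings compare transgenic mouse 2 with wild-type mice 2 to 4. Transgenic mouse 1 also differs from transgenic mouse 2 in background, sex and barcoding, which in these 2 animals cannot be told apart from volume. Of the 9 Foxn1 targets 4 were higher in the transgenic mice, among them Cxcl12 (2.59, adjusted p = 0.012), Prss16 (2.09, adjusted p = 0.024) and Kitl (1.40, adjusted p = 0.018). Summed over the 9 targets, transgenic mouse 2 held 22134 CPM and mouse 1 3670 CPM, the latter within the wild-type range at P28 of 1945 to 9330 CPM. Among markers of other cell types, 1 of 6 fibroblast genes was higher in the transgenic mice, Twist2 (3.27, adjusted p = 0.043).

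Within Psmb11-positive cells of the P28 mice, Trp63 was the 1 member of 7 that differed between transgenic and wild type (0.79, SE 0.19, edgeR adjusted p = 0.043), with 4.21% of genes called (1.57% higher, 2.65% lower). Foxn1 differed by -0.02 (SE 0.20, adjusted p = 0.97), at 231 and 362.2 CPM in the Psmb11-positive cells of transgenic mice 1 and 2 around the 283.8 to 350 CPM of the wild-type mice. Eya1 (0.73, SE 0.19, adjusted p = 0.059) and Pax9 (0.69, SE 0.26, adjusted p = 0.16) did not pass. The Trp63 call was lost in 10 of 22 alternative settings, among them those without transgenic mouse 1 or 2, without wild-type mouse 1, 2 or 4 and without the E16.5 mouse. In the same comparison 4 of 9 factors of mature TEC states were lower (Aire -2.48, Ehf -2.35 and Spib -2.33 among them), as were 2 of 10 basal genes, Krt5 (-1.36) and Krt14 (-1.34), and 1 of 6 epithelial genes, Cldn3 (-2.72). At 1 year the transgenic mouse had 76.3 CPM of Foxn1 and 183.7 CPM of Pax1, against 104.3 and 319.2 CPM in the wild type, opposite in sign to the fitted differences at P28. The difference of the transgenic effect between 1 year and P28 was -2.31 for Pax1 (SE 0.46, edgeR adjusted p = 0.24) and -1.12 for Foxn1 (SE 0.42, adjusted p = 0.63). No member passed that test, in which 0.0134% of genes were called. By its unadjusted p, 2 of the 8 members were under 0.05, as were 1612 of 22471 genes.

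Cortical and medullary cells were also gated before sequencing, Ly51+ cells from 4 mice and UEA-1+ cells from 2. The gates were checked by Enpep, which encodes Ly51, and it was 2.74 higher in Ly51-sorted than in unsorted cells of the same mice (SE 0.27, edgeR adjusted p = 0.015). Foxn1 was read at 226, 380 and 330 CPM in Ly51-sorted cells of wild-type mice 1, 3 and 4 at P28, against 138.4, 152.8 and 153.9 CPM in their unsorted cells, and at 197 CPM against 104.3 CPM at 1 year. It was higher in the Ly51 gate in all 4 mice, and it was the 1 member called there (0.93, SE 0.21, adjusted p = 0.048), with 6.32% of 17605 genes called (1.43% higher, 4.9% lower). Pax1 was higher in all 4 mice too, at 591, 1016, 1023 and 939 CPM against 66.8, 204.8, 205.2 and 319.2 CPM, but with more spread between mice (2.02, SE 0.55, adjusted p = 0.069). Cells with thymocyte or fibroblast transcripts, 5 or more of either list, made up 48.3 and 60.8% of the Ly51-sorted cells of mice 3 and 4 and 5.45 and 6.53% of those of mouse 1 and the 1-year mouse. Of 11 thymocyte genes 3 were higher in the Ly51 gate, Rag1 by 2.75, and all 4 parathyroid genes were lower (Pth -6.60). Without marked cells no member was called by edgeR in this comparison, Foxn1 being 0.86 higher (adjusted p = 0.066). The Foxn1 call was also lost without wild-type mouse 3 or 4, without the 1-year mouse and without the block for the mouse (an edgeR adjusted p of up to 0.20), and 3 members were called without wild-type mouse 1 or the newborn.

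UEA-1-sorted cells of the newborn and of wild-type mouse 1 at P28 held Foxn1 at 152.7 and 115.997 CPM and Hoxa3 at 1.41 and 1.68 CPM. Against unsorted cells no gene at all passed (0% of 17605 called by edgeR, 955 at an unadjusted p under 0.05, 51 by DESeq2), and Hoxa3 (-2.45, SE 0.73, adjusted p = 0.81) had the 1 unadjusted p under 0.05 among members. Against Ly51-sorted cells Hoxa3 was 3.72 lower in the UEA-1 gate (SE 0.77, adjusted p = 0.046), the 1 member called where 5.11% of genes were (3.44% higher, 1.67% lower). Only wild-type mouse 1 had both gates, so this contrast is largely indirect, through the unsorted cells of different mice. Hoxa3 was also near the floor in the UEA-1 cells, at the 1.41 and 1.68 CPM given above. Foxn1 (-1.31, SE 0.31, adjusted p = 0.057) and Pax1 (-3.29, SE 0.83, adjusted p = 0.061) did not pass. Of the 9 Foxn1 targets 8 were lower in UEA-1-sorted than in Ly51-sorted cells, Psmb11 by a difference of -5.97 and Prss16 by -6.57 on the log2 scale. Of 11 thymocyte genes 3 were lower in the UEA-1 gate (Rag1 -5.25) and of 4 parathyroid genes 2 were higher (Pth 7.25), and their part in the Hoxa3 difference was not tested beyond leaving out marked cells. The Hoxa3 call was lost without the newborn, wild-type mouse 3 or 4 or the 1-year mouse, without marked cells and with other size factors (an adjusted p of up to 0.14), and 5 members were called without wild-type mouse 1.

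**Figure D3:**
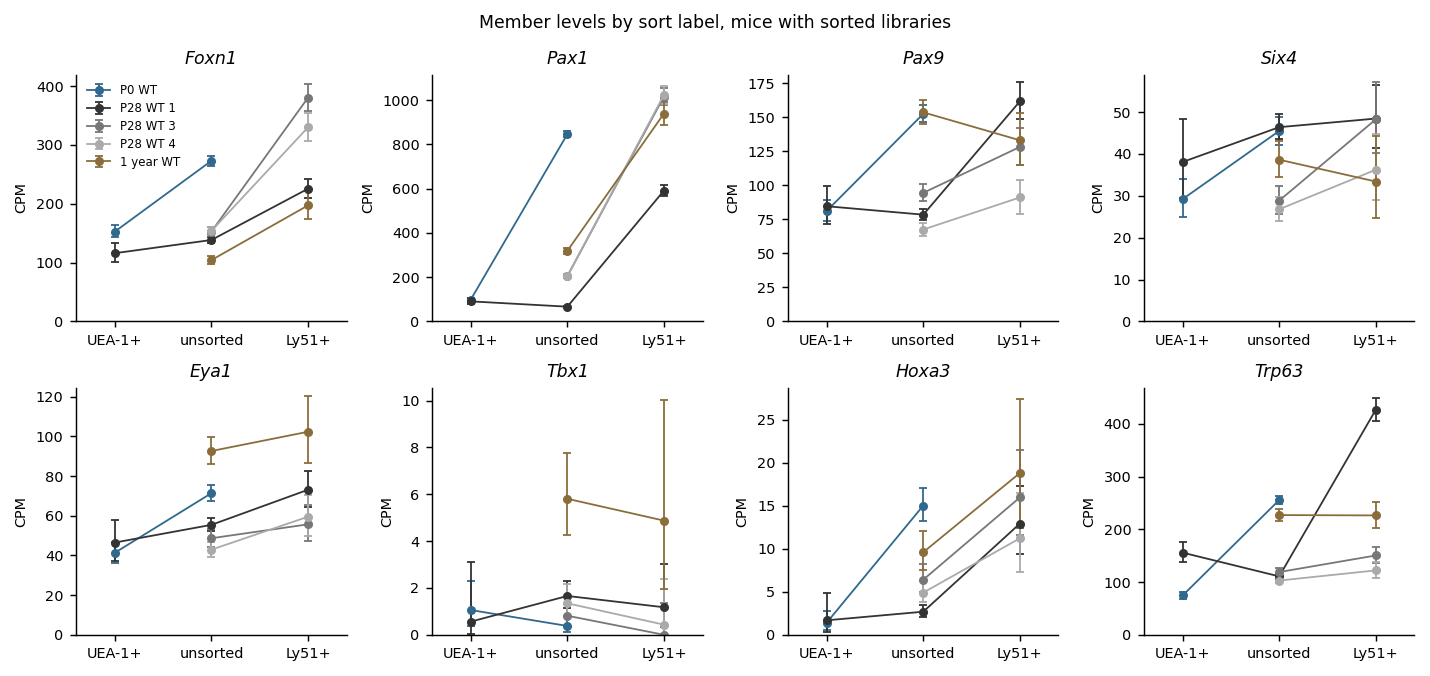
Level of each member (vertical axis, CPM) in the UEA-1, unsorted and Ly51 cells (horizontal axis) of the 5 mice with at least 1 gated population, with lines joining samples of 1 mouse and bars for 95% Poisson intervals. Foxn1 and Pax1 are higher in Ly51 than in unsorted cells of all 4 mice that have both.

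The relation to Psmb11, Krt5 and Aire was then read within cells, by comparing in each mouse the summed transcripts of unsorted cells with and without a transcript of the partner gene among 1000. Foxn1 was higher in Psmb11-positive than in Psmb11-negative cells in 10 of 10 mice, with a lowest, median and highest level of 214, 306 and 362.2 CPM against 71.02, 128 and 214 CPM. In each mouse the ratio was between 1.49 and 3.32, and the fitted difference was 1.16 on the log2 scale (SE 0.10, edgeR adjusted p = 1.1e-06). Altogether 4 members were called, where 26.3% of 20217 genes were (8.8% higher, 17.5% lower). Pax1 (1.51, SE 0.21, adjusted p = 7.1e-05) and Hoxa3 (0.84, SE 0.20, adjusted p = 0.0046) were likewise higher in 10 of 10 mice, and Tbx1 was lower in 9 of 10 (-1.60, SE 0.44, adjusted p = 0.012). Tbx1 was near the floor, at 0, 0.4 and 2.88 CPM in positive and 0.174, 1.13 and 6.1 CPM in negative cells (lowest, median and highest). With so few transcripts in a mouse a small class can hold none by sampling alone, so this tally of mice shows little. The other 4 members did not pass, with Pax9 at 0.05 (SE 0.10), Eya1 at 0.11 (SE 0.10), Six4 at 0.18 (SE 0.08) and Trp63 at 0.29 (SE 0.11, adjusted p = 0.057). Of 9 factors of mature TEC states 7 were lower and 1 was higher, of 10 basal genes 7 were lower and 2 higher, and of 9 pharyngeal factors 4 were lower and 1 was higher. All 8 other Foxn1 targets were higher in Psmb11-positive cells, led by Prss16 (3.26), Cd83 (2.86) and Ccl25, the chemokine that attracts thymocytes (2.81). Thymocyte genes moved with this split as well, 9 of 11 being higher in Psmb11-positive cells, Cd8a by 2.31, and the part they have in the result was not tested beyond leaving out marked cells, which kept all 4 calls. All 4 parathyroid genes were lower in Psmb11-positive cells, Pth by a difference of -3.05 and Gcm2 by -2.93, as were 2 of 4 thyroid genes, and their part in the Tbx1 difference was not tested. Of 6 fibroblast genes 1 was higher and 2 were lower, and of 6 epithelial genes 2 were higher and 4 lower. Of 3 myeloid genes 1 was lower. Pooled over all mice, Psmb11-positive cells were also deeper, with a median of 9785 transcripts against 7057. Such pooled medians also carry the differences in depth between mice.

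The relation was graded. Foxn1 went from a median of 128 CPM over 10 mice in cells with no Psmb11 transcript among 1000 to 211 CPM with 1 (10 mice), 368.5 CPM with 2 or 3 (5 mice) and 480.5 CPM with 4 to 7 (3 mice), with lowest to highest values of 71.02 to 214, 160 to 306, 318.02 to 401.9 and 419.02 to 497.8 CPM. From 1 transcript upward the ranges no longer overlapped. Pax1 took the course 166, 472.3, 960 and 1060 CPM, levelling off after 2 or 3 transcripts, and Hoxa3 went from 7.26 to 19.3 CPM. Pax9 (116.2, 133, 123 and 130 CPM) and Eya1 (60.4, 70.2, 67.2 and 64.8 CPM) stayed within their own spread between mice. The Trp63 medians were 142.9, 197.5, 198 and 307.8 CPM, with ranges between mice that overlapped. The higher bins hold cells of fewer mice, so the steps of a median are not all over the same animals.

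**Figure D4:**
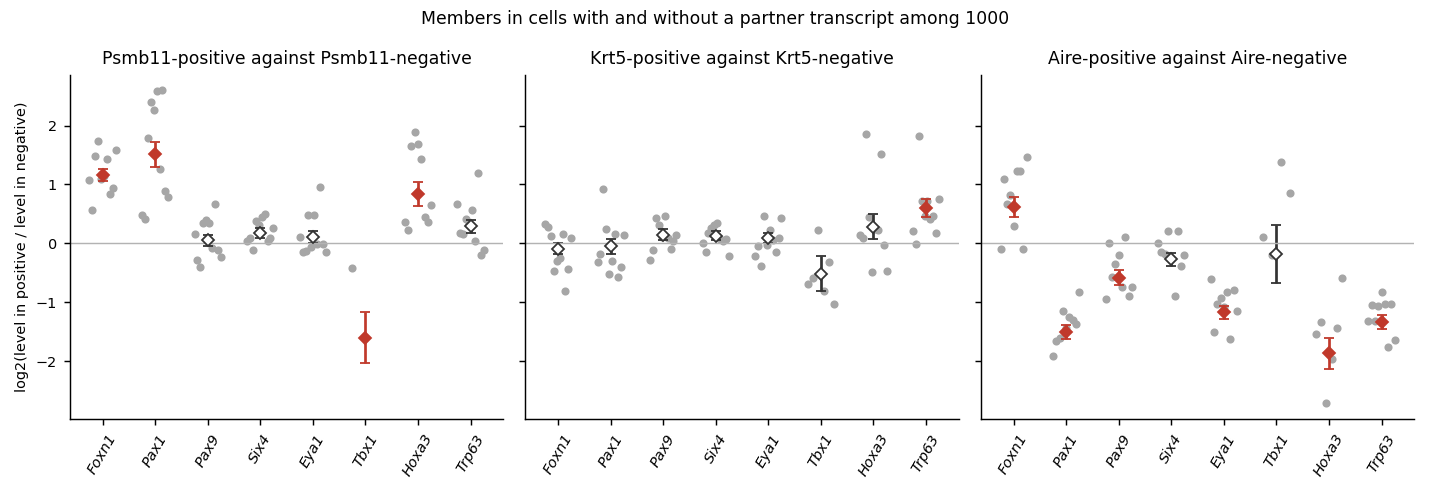
Log2 ratio of each member's level in cells with to cells without a transcript of Psmb11, Krt5 or Aire among 1000, as grey points for single mice with at least 3 transcripts on each side and as diamonds for the fitted difference with its standard error (filled where edgeR's adjusted p was under 0.05). Foxn1 lies above 0 for Psmb11 in all 10 mice, and for Aire 7 fitted differences lie below 0, of which 5 passed the test.

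Krt5 separated 1 member. Trp63 was higher in Krt5-positive cells in 9 of 10 mice, with a lowest, median and highest level of 102.2, 213 and 252.9 CPM against 54.8, 122 and 256 CPM, a difference of 0.60 (SE 0.15, edgeR adjusted p = 0.015) where 17.6% of 19007 genes were called (7.04% higher, 10.6% lower). The exception was the newborn, with 252.9 CPM against 256 CPM, and the ratio was highest in wild-type mouse 1 at P28, with 193.4 CPM against 54.8 CPM. Foxn1 was higher in 5 mice and lower in 5 (-0.09, SE 0.09, adjusted p = 0.49), and Pax1 stood at -0.05 (SE 0.13, adjusted p = 0.81). Trp63 was also read by the number of Krt5 transcripts, from a median of 122 CPM with none to 156.9 with 1, 215.7 with 2 or 3 and 244 CPM with 4 to 7, all over 10 mice. With 8 or more it was 220.3 CPM over 8 mice, below the bin before it. Of 9 other basal genes tested 8 were higher in Krt5-positive cells, led by Krt14 (2.15) and Krt15 (1.72). Lower were 6 of the 9 Foxn1 targets, 10 of 11 thymocyte, 2 of 6 fibroblast and 1 of 4 parathyroid genes. The part of these markers in the Trp63 difference was not tested beyond leaving out thymocyte- or fibroblast-marked cells. When a cell was called Krt5-positive from any of its transcripts, not only from 1000, no member was called, the Trp63 difference being 0.46 (edgeR adjusted p = 0.12).

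Aire split the members. In the 9 mice with at least 30 cells in each class, all but the newborn, Foxn1 was higher in Aire-positive cells (0.62, SE 0.17, edgeR adjusted p = 0.012), while Pax1 (-1.51, SE 0.12, adjusted p = 9.8e-07), Trp63 (-1.33, SE 0.12, adjusted p = 2.3e-06), Eya1 (-1.17, SE 0.11, adjusted p = 3.5e-06), Hoxa3 (-1.87, SE 0.27, adjusted p = 8.7e-05) and Pax9 (-0.58, SE 0.13, adjusted p = 0.0033) were lower. Thus 6 of 8 members were called where 35.6% of 19402 genes were, 19.7% of them lower and 15.9% higher. Pax1, Trp63, Eya1 and Hoxa3 were lower in Aire-positive cells in 9 of 9 mice. For Pax1 the lowest, median and highest levels were 23.8, 101.6 and 265.8 CPM in positive and 75.3, 225 and 1004 CPM in negative cells. Six4 (-0.27, SE 0.11, adjusted p = 0.078) and Tbx1 (-0.18, SE 0.49, adjusted p = 0.82) did not pass.

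Foxn1 in Aire-positive cells was read at 248.9, 166, 240 and 180 CPM in wild-type mice 1 to 4 at P28, against 117, 104.8, 135 and 147 CPM in their Aire-negative cells. It was likewise higher at 1 year (224 against 96.0 CPM), in transgenic mouse 1 (258 against 111 CPM) and in the 1-year transgenic mouse (192.1 against 69.8 CPM). The 2 exceptions were E16.5 (238.5 against 255.4 CPM) and transgenic mouse 2 (248.8 against 266.2 CPM), which with the newborn have the largest shares of Psmb11-positive cells. The Aire-positive cells of the 9 mice thus lay between 166 and 258 CPM of Foxn1 while their Aire-negative cells ranged from 69.8 to 266.2 CPM. Foxn1 had a median of 125.9, 190.6, 224 and 247.7 CPM in cells with 0, 1, 2 or 3 and 4 to 7 Aire transcripts among 1000 (10, 9, 6 and 2 mice), and Pax1 of 231, 99.4, 85.7 and 33.4 CPM. Here too the higher bins hold fewer mice, so the steps are not all over the same animals. Within the 9 mice the ratio of Pax1 in Aire-positive to Aire-negative cells was 0.265 to 0.564. Of the 9 Foxn1 targets 5 were lower and none was higher in Aire-positive cells, with Cxcl12 at -2.47, Ctsl, a protease of antigen processing, at -2.12 and Prss16 at -1.94. When Aire was sought among all transcripts of a cell, the Foxn1 difference was 0.42 and no longer passed (edgeR adjusted p = 0.069). Aire-positive cells carried more Fezf2 (1.90) and Spib (1.41) and less of 7 of 10 basal genes, and of 11 thymocyte genes 5 were lower and 1 was higher.

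**Figure D5:**
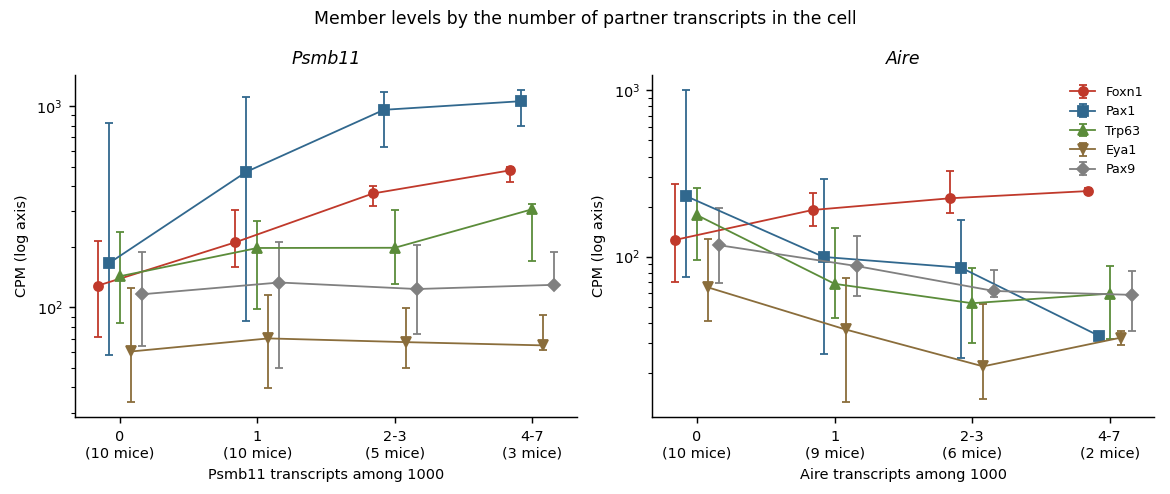
Median level over mice of Foxn1, Pax1, Trp63, Eya1 and Pax9 (log axis, CPM) in cells with 0, 1, 2 or 3 and 4 to 7 transcripts of Psmb11 (left) or Aire (right) among 1000, with bars from the lowest to the highest mouse. From the lowest bin (10 mice) to the highest (3 mice for Psmb11, 2 for Aire) the Foxn1 median goes from 128 to 480.5 CPM with Psmb11 and from 125.9 to 247.7 CPM with Aire, and the Pax1 median is higher in the last bin with Psmb11 and lower with Aire.

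Taking the 3 partners at once, with classes of at least 30 cells in a mouse, Foxn1 was highest where Psmb11 was present and Aire absent, with a median of 305 CPM in Krt5-negative cells (9 mice) and 318.9 CPM in Krt5-positive ones (9 mice). Cells with Aire and no Psmb11 had 232.97 CPM without Krt5 (6 mice) and 229 CPM with Krt5 (7 mice). Cells with neither had 110 CPM without and 114.2 CPM with Krt5 (10 mice each), so that the medians with and without Krt5 were close in each pair. Cells with both Psmb11 and Aire were few, 66 without and 70 with Krt5 over all mice, and held 302.7 and 380 CPM of Foxn1 in the pooled sums. Pax1 was ordered otherwise, with 755 and 610 CPM in the Psmb11 classes, 176 and 173.4 CPM in the classes with neither and 74.3 and 75.1 CPM in the Aire classes, without and with Krt5.

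Members were also read against each other, in the 17318 unsorted cells with at least 3000 transcripts, thinned to 3000. Foxn1 was found in 40.04% of cells with Pax1 and 22.7% of cells without it, and more often in 10 of 10 mice. Within mice this gap was smaller, with medians of 29.7 and 23.6%. Trp63 was likewise found more often with Pax1 in 10 of 10 mice (medians 41.2 and 29.5%), and so were Eya1 (17.01 and 12.2%) and Hoxa3 (3.37 and 1.48%). Thinned to 1000 transcripts, Foxn1, Trp63, Eya1 and Hoxa3 were each more frequent with Pax1 in 8 of 10 mice. At 3000 transcripts Eya1 was more frequent with Foxn1 in 3 of 10 mice (medians 14.6 and 15.5%), and in 2 of 10 at 1000. For Trp63 with Foxn1 the tally depended on depth, with 5 of 10 mice at 3000 (medians 34.2 and 35.5%) and 8 of 10 at 1000 (medians 15.9 and 15.02%). Of the 33 cells with Tbx1 in the 1-year transgenic mouse 20 (60.6%, 95% exact binomial interval 42.1 to 77.1%) held Pax9, against 38.01% of its other cells, and 2 (6.06%, 0.743 to 20.2%) held Foxn1, against 14.4%. At least 3 of the 8 members were found together in 53.3% of cells at E16.5 and 54.8% at P0, against 9.63 to 15.2% in the wild-type P28 mice, 29.3% in the 1-year wild type, 9.03 and 41.6% in transgenic mice 1 and 2 and 23.8% in the 1-year transgenic mouse.

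The genes whose profile was most like each member's were sought over 51 sums, the cells of each mouse split by the 3 partner genes, among 7732 genes with a mean of 20 CPM or more. Pearson's r of log2 levels was used as a description, since sums of 1 mouse share its libraries. Because the sums are split by Psmb11, Krt5 and Aire, an r with any of these partly restates the class differences given above. Foxn1 was followed most closely by Ufsp1 (r = 0.88), Cyth1 (0.87) and Bnip3l (0.86), and it followed Psmb11 with r = 0.71. Pax1 had the closest companions, Tulp3, Man2a1 and Zfyve21 (0.96, 0.96 and 0.95), and correlated with Psmb11 at 0.88, with Hoxa3 at 0.87 and with Aire at -0.79. Trp63 was most like Trim29, Zfp36l1 and Fgfr2, the receptor gene through which Fgf7 signals in its epithelial form (0.95, 0.92 and 0.92). For Pax9 the 3 closest were Rbbp9, Tceal8 and Ankrd6 (0.86, 0.85 and 0.84), for Eya1 Laptm4a, Cd151 and Prrc2b (0.86 each), and for Six4 Prpf19, 2610507B11Rik and Kat6b (0.69, 0.68 and 0.68). Tbx1 and Hoxa3 were under the 20 CPM limit.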

How the data were processed

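Single thymic epithelial cells in plates were read by CEL-Seq2, 96 wells to a library. The deposited values are estimated counts, which the authors made by aligning reads with BWA 0.6.2-r126 to mouse ENCODE gene models (sense reads only, reads with several alignments discarded), counting molecular barcodes and converting them to transcripts for repeated barcodes among 4096. Base calls were made with bcl2fastq 2.17.1.14 per the labels. Every deposited value fits a whole number of molecular barcodes under that conversion, so no further normalization was seen.

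Cells with at least 1500 transcripts (P28), 1000 (1-year wild type) or 3000 (E16.5, P0 and 1-year transgenic) were kept, 25154 of 36288 wells. A library uses 96 of 192 barcode columns, and 2 libraries with only 58.9 and 64.9% of their transcripts in the used columns were left out. Rounded sums per mouse were tested with edgeR 4.0.16 in R 4.3.3 (quasi-likelihood test, TMM, low-count filter, Benjamini-Hochberg adjustment over all genes, called at an adjusted p under 0.05). Fits between mice had the 6 age and genotype groups and a term for whole or split sample volume, class fits had the mouse as a pair, and fits of gates had the mouse as a block. DESeq2 1.42.0 was an alternative, and the scripts were tested on simulated data. Positive cells held a partner transcript among 1000 drawn per cell (seed 7), and cells with fewer than 1000 were left out of classes and thinned shares. Classes needed 30 cells in a mouse. Descriptions and plots were made with matplotlib 3.10.9, pandas 2.3.3, scipy 1.17.1 and numpy 2.4.6 under Python 3.11.15. Intervals are exact at 95% and cover counting error only. Mice were the replicates, and groups of 1 mouse borrow the spread of the others. Named genes were the 8 members, the 3 partners, at most the 3 called genes of each list with the largest change, and the 3 genes most like each member. The members and lists were chosen with earlier results of these data known.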

Additional observations from a re-analysis of the deposited data

Results flagged for a closer look

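Among the 4 wild-type mice at P28, 1 mouse stood far from the other 3 in 3 of 16 sets of values tested by Dixon's criterion, where chance flags about 1 set in 20. Pax9 was found in 8.50% of thinned cells of mouse 3, against 6.99% in the next mouse. Six4 was at 46.4 CPM in mouse 1, against 30.1 CPM in the next. Trp63 was found in 7.26% of thinned cells of mouse 2, against 10.6% in the next.

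Transcripts were also recorded under cell barcodes that a library did not use, a signal outside the cells compared here. For every 100 transcripts under used barcodes, unused ones held 3.69 of Foxn1, 2.30 of Pax1, 3.62 of Pax9, 2.51 of Six4, 4.95 of Eya1, 1.39 of Tbx1, 1.41 of Hoxa3 and 3.81 of Trp63. The rates differed between mice, Foxn1 from 0.352 in transgenic mouse 1 at P28 to 11.3 in the 1-year wild type and Eya1 from 0.791 in wild-type mouse 1 to 13.3 in wild-type mouse 4 at P28. Their part in the differences between mice was not tested.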

How the results depend on the processing

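The Psmb11, Krt5 and Aire comparisons kept their counts of members called within 1.5 times when any single mouse was left out (4 to 5, 1 and 6 members), and so did E16.5 against P28 and, in Psmb11-positive cells, E16.5, P0 and 1 year against P28. The counts at P0 and 1 year in all unsorted cells, for the transgene and for the gates did not. Leaving out 1 mouse gave 5 to 8 members at E16.5, 1 to 7 at P0, 0 to 3 at 1 year, 0 to 5 for the transgene, 0 to 3 for Ly51 and for UEA-1 against unsorted cells and 0 to 5 for UEA-1 against Ly51. In Psmb11-positive cells it gave 2 to 4 at E16.5, 1 at P0, 0 at 1 year and 0 to 1 for the transgene. Where an arm kept 1 mouse, that mouse was assumed to vary like the others. The causes were not tested.

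Without the volume term 0 members were called at P0, 0 for the transgene and, in Psmb11-positive cells, 1 at E16.5, 0 at P0 and 0 for the transgene. With sex added 1 was called at P0 and 0 for the transgene. DESeq2 called 2 at 1 year (748 of 16112 genes) and 2 for the transgene (943 of 16696). It called 3 for Ly51 and 3 for UEA-1 against Ly51 (4150 and 4132 of 17909). A fit of only the groups compared called 3 at 1 year. With no low-count filter 2 (P0), 1 (1 year) and 4 (transgene) were called in Psmb11-positive cells, 2 for Ly51 and 3 for UEA-1 against Ly51. Other size factors gave 0 for the transgene in Psmb11-positive cells and 0 for UEA-1 against Ly51, and moved the median of all genes by 0.11 in UEA-1 against unsorted cells. A minimum of 3000 transcripts gave 0 for the transgene in Psmb11-positive cells. Without marked cells 2 were called there, and 0 in Ly51 and in UEA-1 against Ly51. Without the replicate block 0 were called for Ly51, 2 for UEA-1 against Ly51 and, as with it, 0 for UEA-1 against unsorted cells. With the partner sought among all transcripts, Psmb11-positive cells gave 6 (E16.5) and 4 (P0), and Krt5 gave 0. With at least 2 partner transcripts Psmb11-positive cells gave 1 (E16.5), 0 (P0) and 0 (transgene).

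Foxn1 at P28 was 117 CPM as a mean over single cells, and its share of cells was 25.7% at 3000 transcripts and 35.5% without thinning. No called member reversed. Uncalled ones did, on the log2 scale. In Psmb11-positive cells with at least 2 transcripts required, Foxn1 was -0.076 at E16.5 and -0.21 at P0, and Hoxa3 -0.036 at P0 and -0.91 at 1 year, and Hoxa3 was -0.019 at 1 year with sex added. For the transgene in those cells Foxn1 was 0.035 with no filter, 0.14 without marked cells and 0.53 by all transcripts, Six4 was 0.044 with no filter, 0.028 with sex and 0.14 by all transcripts, and Hoxa3 was 0.74 by all transcripts. Tbx1 in UEA-1 against unsorted cells was -0.055 with no filter and -1.18 without the block, and -0.70 without the block against Ly51. By all transcripts Pax9 was -0.017 with Psmb11, and Foxn1 0.061, Pax1 0.28 and Eya1 -0.036 with Krt5. Leaving out 1 mouse gave ranges across 0 for the transgene (Six4 -0.19 to 0.48, Eya1 -0.34 to 1.27, and in Psmb11-positive cells Foxn1 -0.56 to 0.29, Six4 -0.29 to 0.093, Hoxa3 -1.14 to 0.12), in Psmb11-positive cells at P0 (Foxn1 -0.031 to 0.20) and 1 year (Hoxa3 -0.10 to 0.18), in UEA-1 against unsorted cells (Foxn1 -0.82 to 0.067, Pax1 -3.08 to 0.17, Tbx1 -1.50 to 1.47) and against Ly51 (Tbx1 -0.65 to 2.43), with Psmb11 (Pax9 -0.0031 to 0.11), Krt5 (Pax1 -0.16 to 0.0084) and Aire (Tbx1 -0.47 to 0.071).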

Other observations

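In wild-type mouse 1 at P28 the 4 libraries marked in the labels as technical replicates held 188.1 CPM of Foxn1 (95% Poisson interval 174.9 to 202.1 CPM), against 127 CPM (121 to 133 CPM) in its 12 unmarked libraries and 124 CPM (111 to 137.997 CPM) in the 4 marked as a biological replicate. The last 4 held 382 CPM of Xist, against 1.57 CPM in the other 16.

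Marker genes of cell types other than TECs differed in both directions in Aire-positive cells. Of 3 myeloid genes tested 2 were higher, C1qa by 2.43 on the log2 scale (edgeR adjusted p = 0.00028), and of 6 fibroblast genes 2 were higher, Pdgfrb by 2.42 (adjusted p = 0.00017), with a median over the 6 of -0.65. Of 4 thyroid genes 2 were higher, among them Tg, the thyroglobulin gene (1.87, adjusted p = 0.0011), and Nkx2-1 was lower (-0.61, adjusted p = 0.040). Of 4 parathyroid genes 2 were lower (median -1.80), and of 11 thymocyte genes 5 were lower and 1 was higher.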
